A study of Homo sapiens with 21 samples.

Results

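Hepatocyte growth factor (HGF), its receptor MET and 8 other growth factor receptors were followed in SK-N-BE(2), an established human neuroblastoma cell line, 72 h after lentiviral delivery of short hairpin RNAs (shRNAs) against ARID1A and ARID1B. The set holds 10 of the 60728 gene identifiers of the deposited table, found by their symbols: HGF, MET, AXL, EGFR, ERBB3, PDGFRA, PDGFRB, FGFR1, FGFR2 and IGF1R. HGF was chosen by its values, as one of the largest falls from Control after silencing, so its levels are given as a description and carry no test. The other 9 genes were listed by their function, with earlier results of these data known.

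ARID1A and ARID1B are alternative DNA-binding subunits of the BAF chromatin remodelling complex, and the study silenced them to ask which genes depend on that complex. RNA was sequenced in 7 conditions of 3 libraries each: cells with a non-silencing shRNA (Control), cells labelled shARID1A.2 or shARID1A.4, cells labelled shARID1B.2 or shARID1B.3, and cells labelled with the combinations shARID1A/B.2.3 or shARID1A/B.4.2. The conditions share the parental line, the culture medium with fetal bovine serum and insulin, and the lentiviral transduction. The line is a single model and nothing in the labels says that the 3 libraries of a condition came from separate cultures, so the p-values measure the spread between these libraries, which may be technical.

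Receptor tyrosine kinases sit in the cell membrane, bind a growth factor outside the cell and phosphorylate adaptor proteins inside it, which starts the RAS-ERK and PI3K cascades. HGF is a secreted factor made chiefly by mesenchymal cells as an inactive precursor, cleaved by serine proteases and bound by MET, and it promotes cell movement and invasion. In neuroblastoma, cells in the mesenchymal state are known for receptor tyrosine kinases such as PDGFRA, PDGFRB, EGFR and AXL, while cells in the adrenergic state express noradrenergic lineage factors.

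The targeted genes were examined first, because they went against some labels. ARID1A averaged 6311.5 ± 191.0 (SD, n = 3, deposited value) in Control, and stood at 34.0% and 35.6% of that mean in the libraries labelled shARID1A.2 and shARID1A.4 and at 30.4% and 39.3% in those labelled shARID1B.2 and shARID1B.3. It stood at 89.7% and 86.2% in the libraries labelled shARID1A/B.2.3 and shARID1A/B.4.2. ARID1B averaged 5796.0 ± 7.47 in Control, and stood at 38.7% and 53.5% in the libraries labelled shARID1A.2 and shARID1A.4, at 44.9% and 32.9% in those labelled shARID1A/B.2.3 and shARID1A/B.4.2, and at 86.3% and 105.1% in those labelled shARID1B.2 and shARID1B.3. Both transcripts were therefore low in the libraries labelled shARID1A, ARID1A alone was low in those labelled shARID1B, and ARID1B alone was low in those labelled shARID1A/B. The labels are used below as written, and no direction is tied to the loss of 1 named subunit.

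A deposited value is the number of reads on a gene divided by 1 size factor per library. Between 27954334 and 41077638 reads per library were recovered from the values, with size factors of 0.841 to 1.295. Markers of the adrenergic state were read in every condition, with summed values of 7 genes of 162915 to 167126 in Control and 113038 to 467218 in the silenced libraries. Most of the sum was MYCN, with a mean of 122676 in Control, and the study describes the line as MYCN-amplified. The summed values are therefore no measure of the adrenergic state. The condition means of PHOX2A, HAND2, GATA3 and ISL1 ran from 2545.1 to 19231, those of TH from 516.3 to 2070.8 and those of DBH from 113.7 in shARID1A.2 to 1131.3 in shARID1A/B.2.3, with 528.8 in Control. Of 5 fibroblast markers, COL1A1, COL3A1, DCN and LUM were also read in quantity, with summed values of 27605 to 27773 in Control, 27219 to 28827 in shARID1B.2, 20352 to 22884 in shARID1B.3 and 10366 to 14558 in the other silenced conditions, while FAP was listed at 0 in Control. The fibroblast markers did not move together, so their sum does not describe each of them. In shARID1A.2 the log2 differences from Control were -3.24 for COL1A1, -1.38 for LUM, 0.51 for COL3A1 and 0.48 for DCN. In shARID1B.2 they were -0.02, -0.57, 0.71 and 1.27, in the same order of genes. The 4 endothelial markers summed to 42.5 to 76.3 in Control and 1.94 to 100.2 after silencing, with PECAM1 at 0 in Control. The 4 leukocyte markers summed to 446.3 to 482.7 in Control and 99.8 to 343.9 after silencing, with CD3E at 0 in Control. In a bulk library, fewer cells of a type and less RNA per cell cannot be told apart, and the part of these markers in the results was not tested.

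In Control, the receptors differed widely in level. On the scale of the deposited value per kb of merged exons, PDGFRB was highest, with a level of 1102.9 ± 28.1 (SD, n = 3), followed by IGF1R at 735.4 ± 15.0 and FGFR1 at 708.0 ± 19.2. IGF1R binds the insulin-like growth factors, and FGFR1 is the chief fibroblast growth factor receptor of neural and mesenchymal cells. The levels of IGF1R and FGFR1 were closer to each other than 2 SD of either. PDGFRA stood at 162.5 ± 4.67 per kb, HGF at 123.4 ± 2.21, FGFR2 at 105.4 ± 2.38, AXL at 98.2 ± 7.03 and EGFR at 96.1 ± 1.65, and AXL and EGFR did not differ beyond their spread. ERBB3, at 1.54 ± 0.146 per kb, and MET, at 0.257 ± 0.229 per kb, were close to the limit of detection. SK-N-BE(2) cells thus held reads of the ligand HGF in quantity and hardly any of its receptor.

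HGF (ENSG00000019991.18) lies on the minus strand of chromosome 7, from base 81699008 to 81770438 of GRCh38 in GENCODE 29. Its deposited values were 1218, 1188 and 1229 in the 3 Control libraries, on 1037 to 1197 reads. In shARID1A.4 they were 71.9, 83.2 and 78.8, on 70 to 79 reads, and in shARID1A.2 they were 119.7, 154.5 and 145.9. These were the lowest levels, with means of 6.44% and 11.6% of Control.

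HGF read 172.1, 159.4 and 185.8 in shARID1A/B.2.3 and 199.6, 230.4 and 207.2 in shARID1B.2, or 14.2% and 17.5% of Control. It read 279.7, 247.0 and 303.1 in shARID1B.3 and 297.9, 345.3 and 346.5 in shARID1A/B.4.2, or 22.8% and 27.2% of Control. All 18 silenced libraries lay below the lowest Control library, and the nearest of them was at 346.5 against 1188. From the lowest to the highest mean, the libraries of neighbouring conditions did not overlap, with the exception of shARID1B.3 and shARID1A/B.4.2. The mean differences from Control on the log2(value + 1) scale were -3.11 in shARID1A.2, -3.94 in shARID1A.4, -2.51 in shARID1B.2, -2.13 in shARID1B.3, -2.81 in shARID1A/B.2.3 and -1.88 in shARID1A/B.4.2. These values led to the choice of the set and support nothing further.

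The sequences just upstream of the RefSeq start sites of HGF and MET are shown because the ligand and its receptor are the pair around which the set is built, and because they differ in CpG content, a feature on which the choice of genes did not rest. Each is 250 bases of GRCh38.p14 on the strand of the gene, 5′ to 3′, at chr7:81770048-81770297 for HGF (minus strand) and chr7:116671946-116672195 for MET (plus strand), with CpG dinucleotides in capitals.
HGF: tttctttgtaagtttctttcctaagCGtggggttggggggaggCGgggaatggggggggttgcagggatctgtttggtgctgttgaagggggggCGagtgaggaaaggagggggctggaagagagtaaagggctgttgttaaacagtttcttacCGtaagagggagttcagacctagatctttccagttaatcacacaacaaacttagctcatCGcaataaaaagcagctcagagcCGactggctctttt
MET: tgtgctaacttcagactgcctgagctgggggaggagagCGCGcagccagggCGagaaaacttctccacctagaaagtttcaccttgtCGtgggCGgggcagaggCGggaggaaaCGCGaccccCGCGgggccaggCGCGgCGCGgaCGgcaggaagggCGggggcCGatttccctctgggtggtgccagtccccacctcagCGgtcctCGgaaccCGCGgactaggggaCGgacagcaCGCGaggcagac
The HGF window is upstream of the RefSeq start only. It lies inside the HGF gene as placed above from GENCODE, which starts at base 81770438 on the minus strand. The MET window lies before the GENCODE start of MET, at base 116672390. The HGF window held 6 CpG and 50% G or C, and 38.1% of 35116 promoter windows of the same length held fewer CpG. The MET window held 24 CpG and 68.4% G or C, and 76.3% of windows held fewer. The median over all windows was 11 CpG. The letters GGAATG, a TEAD motif, searched on both strands, occurred once in the HGF window and in 11.9% of all windows. The AP-1 motif TGANTCA, also searched on both strands, was in neither window and in 6.57% of all windows. Such matches describe the letters only.

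MET (ENSG00000105976.15; chromosome 7, plus strand, 116672390 to 116798386) had 0 to 6 reads per library and was not tested, since it did not pass the filter on low values. The deposited values were 2.35, 0 and 3.08 in Control, 4.99, 4.12 and 4.45 in shARID1A.2, and between 0 and 3.04 in the other 15 libraries. The libraries labelled shARID1A.2 held 14 MET reads in all against 5 in Control, and those of the other conditions held 2 to 5. At these counts no difference can be read for the receptor.

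Each silenced condition was compared with Control by limma on log2(value + 1), with p-values adjusted over 18584 genes by the Benjamini-Hochberg method, and genes with an adjusted p under 0.05 and a log2 difference beyond 1 in size are called modulated. The 6 comparisons share the same 3 Control libraries. HGF and 8 receptors passed the filter on low values, ERBB3 through the libraries in which it was high, so that it had to differ. HGF, chosen for its fall, ERBB3 and MET are therefore left out of the counts, which cover AXL, EGFR, PDGFRA, PDGFRB, FGFR1, FGFR2 and IGF1R, the 7 receptors with reads in quantity in all libraries. In shARID1A.2, 5 of the 7 receptors were modulated towards lower values, beside 10.7% of all genes tested, and 0 towards higher values, beside 14.1%. In shARID1A.4, 4 were lower, beside 12% of all genes, and 0 higher, beside 9.32%. In shARID1B.2, 1 was lower, beside 5.12%, and 0 higher, beside 6.86%, and in shARID1B.3, 2 were lower, beside 6.58%, and 0 higher, beside 5.2%. In shARID1A/B.2.3, 2 were lower, beside 9.1%, and 0 higher, beside 7.04%, and without replicate 2 of that condition PDGFRA (-1.02) made them 3. In shARID1A/B.4.2, 3 were lower, beside 8.14%, and 0 higher, beside 10.3%.

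The median log2 difference over the 7 receptors was -1.55 in shARID1A.2, -1.33 in shARID1A.4, -0.745 in shARID1B.2, -0.24 in shARID1B.3, -0.585 in shARID1A/B.2.3 and -0.92 in shARID1A/B.4.2, where the median over all genes tested lay between 0.01 and 0.02. Scaling to total reads in place of the size factors raised the median of all genes by 0.17 in shARID1A.2, 0.14 in shARID1B.2 and 0.18 in shARID1A/B.4.2, and took the share of lower genes among the modulated from 43.1% to 32.4%, from 42.8% to 30.2% and from 44.2% to 29.9%. The number of modulated receptors was the same under that scaling in all 6 comparisons. By the same rule and in the same order of conditions, 3, 0, 1, 1, 0 and 3 of 7 adrenergic markers were lower and 0, 2, 0, 0, 2 and 0 higher, and 2, 3, 0, 0, 1 and 1 of 4 fibroblast markers tested were lower and 0, 0, 1, 0, 0 and 0 higher. Of 2 endothelial markers tested, 0, 1, 0, 1, 1 and 0 were lower and 1, 0, 1, 1, 0 and 1 higher, and of 3 leukocyte markers tested, 2, 2, 2, 0, 1 and 1 were lower and 0 higher. The higher endothelial call in shARID1B.3 was KDR (1.12), which failed with edgeR (adjusted p = 0.081, quasi-likelihood) and DESeq2 (adjusted p = 0.12, Wald test). It also failed without the filter and without Control replicate 2 or 3 or shARID1B.3 replicate 1 or 2. In shARID1B.2 the KDR difference came to less than 1 with a pseudocount of 5 (0.86).

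AXL, the receptor of the vitamin K-dependent ligand GAS6 and a receptor of invasive tumour cells, varied most between conditions among the 7 receptors with reads in quantity. Its values were 545.0, 499.2 and 473.5 in Control. In shARID1A/B.4.2 they were 61.0, 55.6 and 50.6, and AXL fell by 3.16 on the log2 scale (SE 0.092, adjusted p = 7.84e-20, limma). In shARID1A.2 they were 88.1, 98.9 and 88.0, a difference of -2.45 (SE 0.092, adjusted p = 9.22e-18). All 6 libraries lay at or below 98.9.

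AXL read 149.6, 193.8 and 178.6 in shARID1A.4 and 220.7, 204.2 and 214.1 in shARID1A/B.2.3, with log2 differences of -1.54 and -1.24 (adjusted p = 1.19e-13 and 1.01e-11, limma). It read 319.5, 353.1 and 353.0 in shARID1B.2, where it fell by 0.56 (adjusted p = 8.74e-06). In shARID1B.3 it read 471.9, 463.7 and 448.2, and the difference of -0.13 (95% interval -0.32 to 0.06) did not pass the test (adjusted p = 0.222), though the 3 libraries lay just under the lowest Control library.

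EGFR, the receptor of epidermal growth factor, moved in both directions. Control libraries read 1179, 1217 and 1213. In shARID1A/B.2.3 EGFR read 2049, 2288 and 2195 and rose by 0.85 (SE 0.063, adjusted p = 9.43e-12, limma). In shARID1A/B.4.2, the other set labelled shARID1A/B, it read 383.5, 417.9 and 360.6 and fell by 1.64 (adjusted p = 2.25e-17, limma). The libraries of these sets are the only EGFR libraries outside the range from 703 to 1632.

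EGFR also fell in shARID1A.2, where it read 777.8, 703.5 and 746.1, with a log2 difference of -0.70 (adjusted p = 3.64e-10, limma), and in shARID1B.3, where it read 919.9, 1119 and 1030, with a difference of -0.24 (adjusted p = 0.00205). It rose in shARID1B.2, with values of 1513, 1632 and 1581 and a difference of 0.39 (adjusted p = 8e-06). In shARID1A.4 it read 1386, 1246 and 1413, and the difference of 0.16 (adjusted p = 0.0241) did not pass the test when Control replicate 1 (0.15, adjusted p = 0.0701) or shARID1A.4 replicate 1 (0.14, adjusted p = 0.0814) or 3 (0.13, adjusted p = 0.11) was left out. An antisense gene, EGFR-AS1, shares 186 of the 12521 exonic bases of EGFR, and whether the counting used strand is not given in the sources used here.

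ERBB3, a receptor of neuregulins with little kinase activity of its own, had 0 to 15 reads per library. Its values were 12.9, 13.4 and 15.4 in Control and 0 to 10.9 in the silenced libraries, with 11 to 15 reads in Control. All silenced libraries lay below Control, the nearest being 10.9 in shARID1A/B.4.2. It passed the filter on low values only through Control and shARID1A/B.4.2, so its differences from Control are given with no test.

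PDGFRA and PDGFRB, the receptors of platelet-derived growth factors that mark mesenchymal and mural cells, did not follow each other. PDGFRA read 1629, 1578 and 1539 in Control. In shARID1A.4 it read 361.3, 286.6 and 341.3 and fell by 2.27 (SE 0.075, adjusted p = 7.15e-19, limma), and in shARID1B.3 it read 435.0, 538.7 and 475.8 and fell by 1.71 (adjusted p = 5.05e-16). These 6 libraries held the lowest values of the gene.

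PDGFRA read 790.8, 852.4 and 769.6 in shARID1A/B.2.3 and 773.4, 898.4 and 838.3 in shARID1A/B.4.2, with log2 differences of -0.98 and -0.92 (adjusted p = 1.9e-11 and 5.7e-11, limma). In shARID1A.2 it read 1193, 1284 and 1264 and fell by 0.34 (adjusted p = 0.000222). In shARID1B.2 it read 1674, 1767 and 1594, overlapping Control, and the difference of 0.08 (95% interval -0.07 to 0.24) did not pass the test (adjusted p = 0.334). The gene AC058822.1, on the same strand, shares 1533 of the 9732 exonic bases of PDGFRA, so that part of its reads may be assigned to either gene.

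PDGFRB, the highest of the receptors per kb in Control, read 7657, 8054 and 7904 there. It read 1791, 1938 and 1928 in shARID1A.2 and fell by 2.06 (SE 0.037, adjusted p = 3.55e-24, limma). It read 3093, 2954 and 3078 in shARID1A/B.4.2 and 3188, 3042 and 3139 in shARID1A.4, with log2 differences of -1.37 and -1.33 (adjusted p = 1.75e-20 and 2.24e-20). The highest of these 9 libraries was at 3188.

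Smaller falls of PDGFRB were found in shARID1B.2, where it read 4842, 4639 and 4612 (-0.75, adjusted p = 6.25e-15, limma), and in shARID1A/B.2.3, where it read 5372, 5184 and 5184 (-0.59, adjusted p = 4.79e-13). In shARID1B.3 it read 8821, 7785 and 8253, on both sides of the Control libraries, and the difference of 0.07 (95% interval -0.004 to 0.15) did not pass the test (adjusted p = 0.0924). Among the silenced conditions, PDGFRB was highest in shARID1B.3 and the summed fibroblast markers given above were highest in shARID1B.2, and the part of these markers in the PDGFRB values was not tested.

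FGFR1 read 9515, 10040 and 9846 in Control and was lower in all 18 silenced libraries. In shARID1A.2 it read 3109, 3000 and 3111 and fell by 1.67 (SE 0.026, adjusted p = 1.65e-25, limma). In the other conditions its libraries ranged from 5346 to 8900, and the falls were 0.85 in shARID1B.2 (adjusted p = 2.93e-19), 0.75 in shARID1A/B.4.2 (adjusted p = 2.05e-18), 0.74 in shARID1A.4 (adjusted p = 1.96e-18) and 0.58 in shARID1A/B.2.3 (adjusted p = 3.25e-16). In shARID1B.3, where it read 8602, 8900 and 8815, it fell by 0.16 (adjusted p = 6.76e-06). FGFR1 was thus below Control throughout, but past a log2 difference of 1 in shARID1A.2 alone.

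FGFR2, a fibroblast growth factor receptor better known from epithelia, read 781.1, 817.1 and 798.0 in Control. In shARID1A.4 it read 121.4, 143.9 and 109.8 and fell by 2.68 (SE 0.082, adjusted p = 1.56e-19, limma). In shARID1B.3 it read 227.0, 240.4 and 239.2 and fell by 1.76 (adjusted p = 1.91e-15). Both conditions were also those with the lowest PDGFRA.

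FGFR2 read 335.2, 278.2 and 301.6 in shARID1A/B.2.3 and 331.6, 298.7 and 290.7 in shARID1A.2, with log2 differences of -1.39 and -1.38 (adjusted p = 1.16e-13 and 1.02e-13, limma). It read 448.2, 400.6 and 433.1 in shARID1B.2 and 537.4, 563.9 and 521.7 in shARID1A/B.4.2, with differences of -0.90 and -0.56 (adjusted p = 6.18e-10 and 1.4e-06). The libraries of shARID1A.2 and shARID1A/B.2.3 overlapped each other, and none of the 18 overlapped Control.

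IGF1R read 10180, 10487 and 10088 in Control. In shARID1A.2 it read 3439, 3488 and 3588 and fell by 1.55 (SE 0.031, adjusted p = 2.34e-23, limma), and in shARID1B.2 it read 4232, 4227 and 4243 and fell by 1.28 (adjusted p = 3.54e-21). It read 5765, 5493 and 5635 in shARID1A/B.4.2 and 6583, 5822 and 6264 in shARID1B.3, with log2 differences of -0.86 and -0.72 (adjusted p = 3.84e-18 and 2.8e-16).

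IGF1R stayed closest to Control in shARID1A.4, with 8423, 8275 and 8332 (-0.30, adjusted p = 3.84e-09, limma), and in shARID1A/B.2.3, with 9206, 9451 and 9365 (-0.13, adjusted p = 0.000417). Even in the latter, all 3 libraries lay below the lowest Control library.

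**Figure D1:**
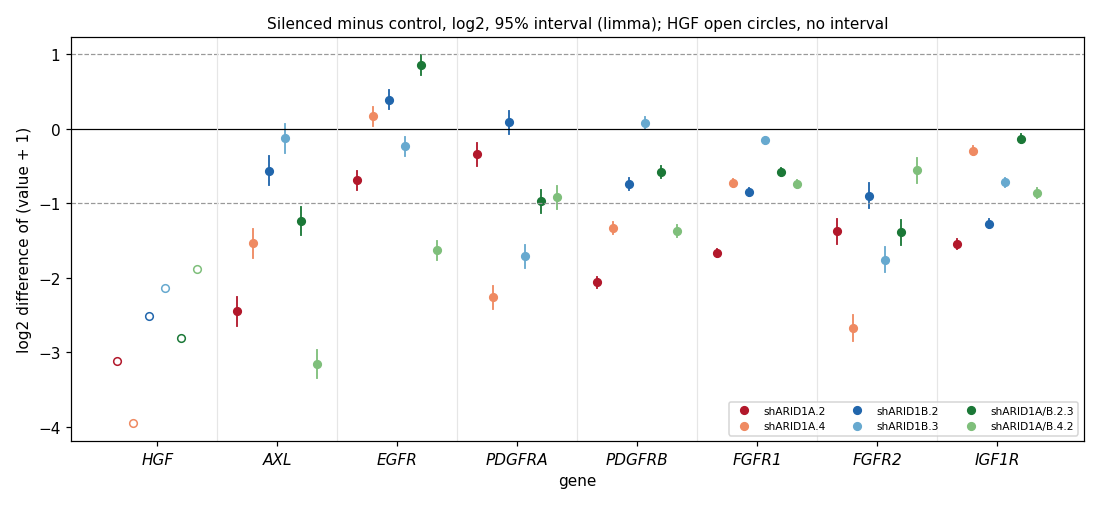
Log2 difference of (value + 1) from Control for HGF and the 7 receptors with reads in quantity (horizontal axis), 1 point per silenced condition, with 95% intervals from limma as bars and log2 differences of 1 in either direction dashed. HGF (open circles, no interval, from -3.94 to -1.88) was chosen for its fall, so its place among the 8 is no result. EGFR spans -1.64 to 0.85, and AXL spans -3.16 to -0.13.

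The 2 shRNA sets of a label were then compared directly, to see whether the receptors depend on the set as well as on the label. Between shARID1A.4 and shARID1A.2, PDGFRA was lower by 1.92 on the log2 scale (95% interval -2.08 to -1.77) and FGFR2 by 1.296 (-1.47 to -1.13) in shARID1A.4, whereas IGF1R was higher by 1.25 (1.19 to 1.31), FGFR1 by 0.94, AXL by 0.91, EGFR by 0.86 and PDGFRB by 0.73. The adjusted p-values of these 7 differences ran from 1.36e-21 to 2.59e-09 (limma). The 2 sets labelled shARID1A, in both of which ARID1A and ARID1B were low, therefore differed in opposite directions for different receptors. HGF differed by -0.83, given without a test.

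Between shARID1B.3 and shARID1B.2, PDGFRA was lower by 1.80 (95% interval -1.95 to -1.64, adjusted p = 1.3e-16, limma), FGFR2 by 0.86 (adjusted p = 1.41e-09) and EGFR by 0.63 (adjusted p = 3.51e-09) in shARID1B.3. PDGFRB was higher there by 0.82 (adjusted p = 7.31e-16), FGFR1 by 0.69 (adjusted p = 1.31e-17), IGF1R by 0.55 (adjusted p = 3.61e-14) and AXL by 0.43 (adjusted p = 0.000219). HGF differed by 0.38.

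Between shARID1A/B.4.2 and shARID1A/B.2.3, EGFR was lower by 2.49 (95% interval -2.62 to -2.36, adjusted p = 3.51e-21, limma) and AXL by 1.92 (-2.11 to -1.73, adjusted p = 1.39e-15) in shARID1A/B.4.2. PDGFRB was lower by 0.79, IGF1R by 0.73 and FGFR1 by 0.17 (adjusted p = 9.57e-16, 8.47e-17 and 2.76e-06), and FGFR2 was higher by 0.83 (adjusted p = 1.88e-09). PDGFRA did not differ beyond the spread (0.06, 95% interval -0.10 to 0.21, adjusted p = 0.511). HGF differed by 0.93.

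**Figure D2:**
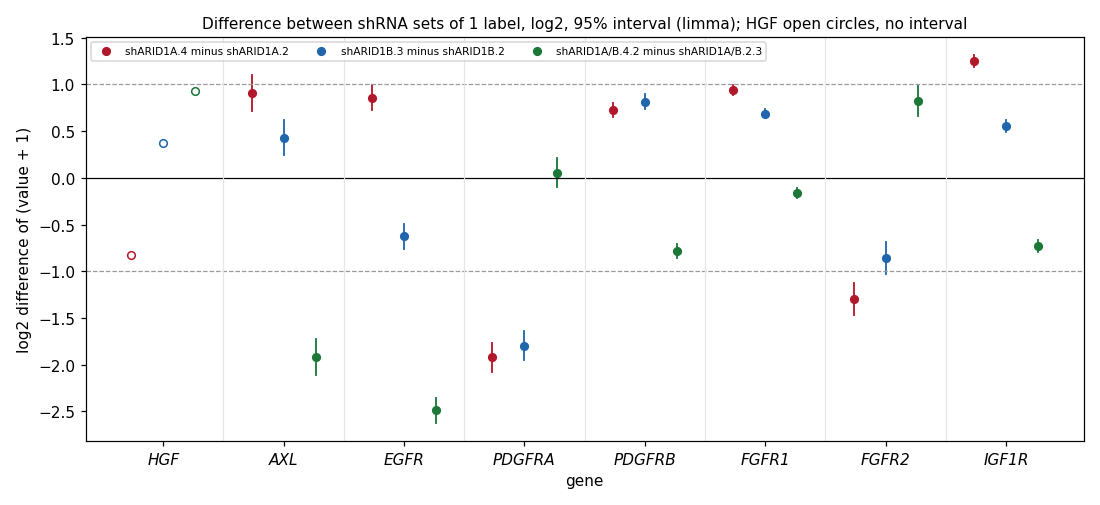
Log2 difference of (value + 1) between the 2 shRNA sets of each label for HGF and 7 receptors, with 95% intervals from limma as bars and log2 differences of 1 dashed. The largest are EGFR between the 2 sets labelled shARID1A/B (-2.49) and PDGFRA between the 2 sets labelled shARID1A (-1.92). PDGFRA between the sets labelled shARID1A/B, in which ARID1B alone was low, is near 0 (0.06).

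The labels were also compared over the mean of their 2 sets, which averages over the differences just described. AXL was lower by 1.65 on the log2 scale (95% interval -1.78 to -1.51, adjusted p = 5.06e-17, limma) in shARID1A than in shARID1B and by 1.85 (-1.99 to -1.72, adjusted p = 3.14e-18) in shARID1A/B than in shARID1B, while shARID1A exceeded shARID1A/B by 0.21 (adjusted p = 0.00882). PDGFRB was lower by 1.36 (adjusted p = 5.45e-23) in shARID1A than in shARID1B, by 0.72 (adjusted p = 3.52e-17) in shARID1A than in shARID1A/B and by 0.64 (adjusted p = 6.33e-17) in shARID1A/B than in shARID1B.

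FGFR2 was lower by 1.05 (adjusted p = 8.81e-14, limma) in shARID1A than in shARID1A/B and by 0.70 (adjusted p = 1.06e-10) than in shARID1B, and higher by 0.35 (adjusted p = 7.1e-06) in shARID1A/B than in shARID1B. FGFR1 was lower by 0.70 and 0.54 in shARID1A than in shARID1B and shARID1A/B (adjusted p = 1.2e-20 and 6.2e-18). EGFR, IGF1R and PDGFRA differed between labels by at most 0.50, in sizes below the differences between the 2 sets of a label listed above for EGFR and IGF1R. HGF differed by -1.21 between shARID1A and shARID1B, by -1.19 between shARID1A and shARID1A/B and by -0.02 between shARID1A/B and shARID1B, given as a description.

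The other genes of the pathway are given from lists, and each rise or fall stated for them is a log2 difference from Control with an adjusted p under 0.05 in limma. Smaller differences in the other conditions are not all named. Counts of lower and higher genes are of modulated genes, to be read beside the shares of all genes given above, which ran from 5.12% to 12% lower and from 5.2% to 14.1% higher. Genes that act on HGF were taken from a list of 8 activators and inhibitors, of which 5 were tested. In these, 2 were lower and 1 higher in shARID1A.2 and in shARID1B.2, 1 was lower and 1 higher in shARID1A/B.4.2, 1 was higher in shARID1A/B.2.3, and none was modulated in shARID1A.4 and shARID1B.3. PLAT, the tissue plasminogen activator, which can cleave the HGF precursor, averaged 1728 in Control and fell by 2.00 (adjusted p = 3.57e-19, limma) in shARID1A.2, by 1.08 in shARID1B.2 and by 1.07 in shARID1A/B.4.2. With scaling to total reads, its differences in shARID1B.2 (-0.94) and shARID1A/B.4.2 (-0.885) came to less than 1 in size. PLAU, the urokinase activator, averaged 34.6 in Control and fell by 2.21 in shARID1A.2 and by 1.16 in shARID1B.2. Its 3 Control libraries spread from 23.5 to 50.4.

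SPINT1, which encodes an inhibitor of the HGF-activating proteases, averaged 43.3 in Control and rose by 1.15 in shARID1A.2, 1.14 in shARID1B.2, 1.301 in shARID1A/B.2.3 and 1.204 in shARID1A/B.4.2, and fell by 0.69 in shARID1B.3 (adjusted p of 1.14e-07 to 0.000651). The related inhibitor SPINT2 differed by -0.57 to 0.88. HGFAC, the HGF activator protease, averaged 7.74 in Control and passed the test in shARID1B.3 alone (-0.98). The proteases ST14 and HPN and the inhibitor SERPINA5 were listed at no more than 4.86 in any library and were not tested.

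Among 18 co-receptors, adaptors and signalling partners of MET, all tested, 2 were lower and 0 higher in shARID1A.2, 3 and 0 in shARID1A.4, 2 and 1 in shARID1B.2, 3 and 1 in shARID1B.3, 2 and 0 in shARID1A/B.2.3, and 1 and 1 in shARID1A/B.4.2. These are 5.56% to 16.7% lower and 0% to 5.56% higher, with 11.1% lower in shARID1A.2 beside 10.7% of all genes, so the counts are no result about the list. The median log2 difference of the list lay between -0.53 and -0.02. GAB1, the docking adaptor of MET, averaged 2075 in Control and fell in shARID1A.4 (-1.66) and shARID1A/B.2.3 (-1.504), and CRKL, an adaptor of the same signalling, fell in both as well (-1.54 and -1.37) (adjusted p of 3.48e-26 to 5.72e-22, limma). PIK3R1, the regulatory subunit of PI3K, fell by 1.38 in shARID1A.2, 1.36 in shARID1B.2 and 1.04 in shARID1B.3.

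STAT3, a transcription factor activated by many receptors, averaged 3393 in Control, fell by 2.65 in shARID1A.2 and 2.48 in shARID1A/B.4.2, and rose by 0.62 in shARID1A.4 and 0.84 in shARID1A/B.2.3. NRP1, a co-receptor of several growth factors, fell by 1.91 in shARID1A.4, 1.01 in shARID1B.2 and 1.21 in shARID1B.3, and rose by 1.12 in shARID1A/B.4.2. Its difference in shARID1B.2 came to less than 1 in size with total reads, TMM or edgeR and without shARID1B.2 replicate 3 (-0.99 to -0.872). PLXNB1, a semaphorin receptor that can pair with MET, fell by 0.22 to 1.004 in all 6 conditions, and its difference in shARID1B.3 (-1.004) came to less than 1 in size with total reads, TMM or edgeR and without Control or shARID1B.3 replicate 2 (-0.982 to -0.936). ITGB4, an integrin chain that can pair with MET, averaged 19.7 in Control and rose by 1.32 in shARID1B.2 and 1.01 in shARID1B.3, the latter at 0.75 to 0.99 without Control replicate 1 or 2 or shARID1B.3 replicate 1. The abundant partners GRB2, SHC1, SOS1, PTPN11, CBL, CRK, RAPGEF1, PIK3CA, INPPL1 and SRC, each at 1770 or more in Control, and the lower CD44 were modulated in no condition, with log2 differences from -0.98 (CBL in shARID1A.2) to 0.98 (RAPGEF1 in shARID1A.4 and shARID1A/B.2.3).

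Of 23 ligands of the receptors, 11 were tested, and 2, 2, 3, 3, 1 and 2 were lower and 1, 1, 1, 0, 1 and 2 higher in the 6 conditions, in the order used above. That is 9.09% to 27.3% lower and 0% to 18.2% higher, and in shARID1A/B.2.3 the lower share (9.09%) was that of all genes (9.1%). The median of the 11 lay between -0.60 and -0.10. IGF2, a ligand of IGF1R, read 607.2, 691.7 and 651.2 in Control. It read 7227, 7512 and 7623 in shARID1A/B.2.3 and 6000, 6427 and 5891 in shARID1A.4, and rose by 3.52 and 3.23 on the log2 scale (adjusted p = 2.63e-17 and 1.1e-16, limma). It read 75.6, 79.3 and 72.4 in shARID1A.2, where it fell by 3.08, and fell by 2.43 in shARID1B.2 and 2.23 in shARID1A/B.4.2.

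In shARID1B.3 IGF2 read 793.4, 418.1 and 640.7, on both sides of Control, with a difference of -0.12 that did not pass the test (adjusted p = 0.455). Its exons share 1460 of 6979 bases with INS-IGF2 and 5144 with a second IGF2 entry of GENCODE 29 on the same strand, so the assignment of reads is uncertain. The 2 conditions with high IGF2 were those in which IGF1R stayed closest to Control. A link between the levels of IGF2 and IGF1R was not tested.

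NRG1, a ligand of ERBB3, averaged 333.3 in Control, rose by 1.16 in shARID1A/B.4.2 and fell by 2.02 in shARID1A.4, 1.23 in shARID1B.2, 1.19 in shARID1A/B.2.3 and 0.88 in shARID1B.3. HBEGF, a ligand of EGFR, fell by 1.27 in shARID1B.2 and 1.43 in shARID1B.3 from a mean of 217.2 and rose by 0.84 in shARID1A/B.4.2. GAS6, the AXL ligand, averaged 345.7 in Control and differed by -0.99 in shARID1B.3 to 0.52 in shARID1A/B.2.3, and PROS1, another ligand of that receptor family, by -0.29 to 0.57, so neither was modulated.

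The fibroblast growth factor FGF2 averaged 752.5 and differed by -0.71 to -0.03. FGF1, at 31.9 in Control, fell by 2.00 in shARID1A.4 and 1.48 in shARID1B.3, and FGF10, at 22.2, fell by 1.38 in shARID1A.2 and 1.29 in shARID1A/B.4.2. FGF18 averaged 6.96 in Control and rose by 3.10 in shARID1A.2 and 1.34 in shARID1A/B.4.2. Its calls in shARID1B.2 (1.06) and shARID1B.3 (-1.09) did not hold without single libraries, the former without Control replicate 2 or shARID1B.2 replicate 1 or 2 (adjusted p = 0.0694, 0.0714 and 0.0723, limma), the latter without Control replicate 3 or shARID1B.3 replicate 1 (adjusted p = 0.0608 and 0.158). PDGFD differed by -0.19 to 0.79 and NRG2 by -0.41 to 0.90. EGF, TGFA, AREG, EREG, BTC, EPGN, PDGFA, PDGFB, PDGFC, FGF7, FGF9 and IGF1 did not pass the filter, with values of at most 13.4 in any library.

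**Figure D3:**
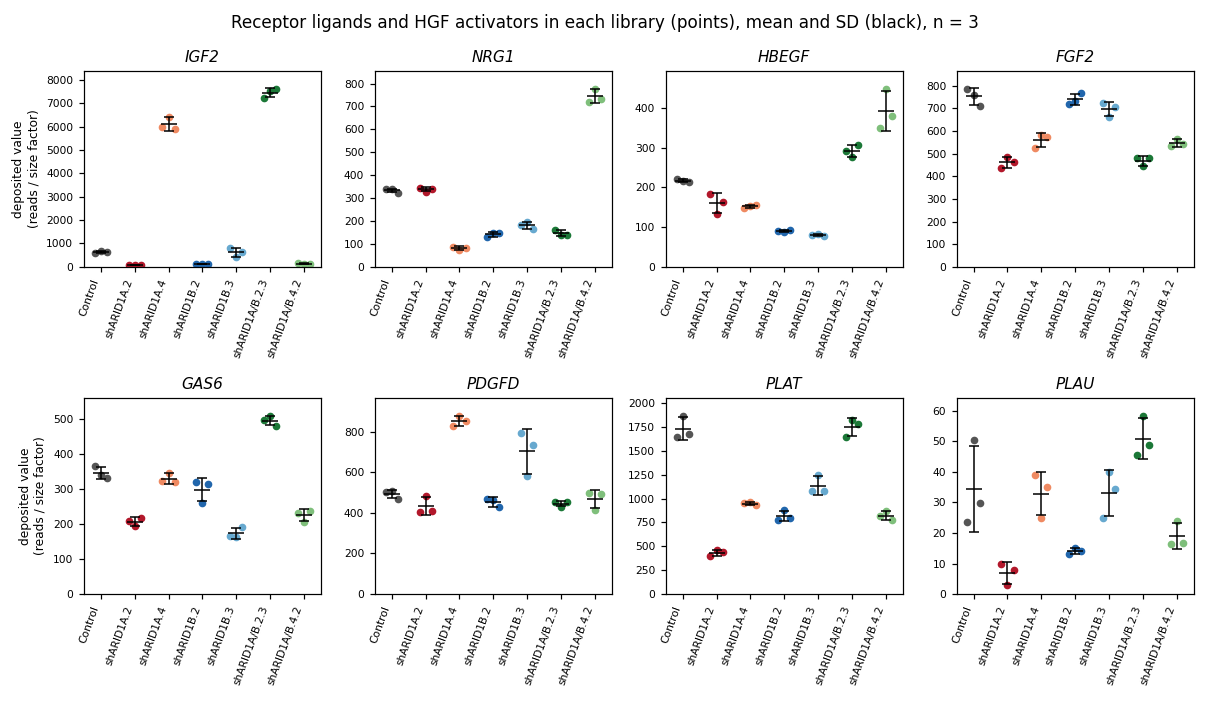
Deposited values (linear axes from 0) of 6 receptor ligands and of the HGF-cleaving proteases PLAT and PLAU in the 7 conditions as labelled, 1 point per library, mean ± SD of 3 libraries in black. IGF2 stands at 5891 to 7623 in shARID1A.4 and shARID1A/B.2.3 and at or below 793.4 elsewhere, and NRG1 is highest in shARID1A/B.4.2.

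Of 14 receptors related to the members, 12 were tested, with 4, 3, 1, 2, 2 and 2 lower and 2, 1, 1, 1, 1 and 2 higher in the same order of conditions, and medians from -0.44 to 0.02. The lower share ran from 8.33% in shARID1B.2 (5.12% of all genes) to 33.3% in shARID1A.2 (10.7% of all genes). TYRO3, the relative of AXL, averaged 1846 in Control and fell by 1.72 in shARID1A.2, 1.16 in shARID1A.4 and 1.19 in shARID1B.2. ERBB2, the partner of ERBB3, averaged 240.9 and rose by 1.80 in shARID1A.2 and 1.49 in shARID1A/B.4.2. ERBB4, another neuregulin receptor, had 1.03 to 8.22 in Control and rose by 2.09 in shARID1A.2, 2.17 in shARID1A.4, 1.53 in shARID1B.2 and 2.46 in shARID1A/B.4.2. It also rose in shARID1B.3 (1.33), which was lost when Control replicate 3 was left out (0.79, adjusted p = 0.0702, limma). That call also failed with DESeq2 (adjusted p = 0.0504, Wald test) and with a pseudocount of 5 (0.77). In shARID1B.2 the ERBB4 difference came to less than 1 without Control replicate 3 (0.98) and with a pseudocount of 5 (0.92).

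FGFRL1, a receptor of the same family without a kinase domain, averaged 867.7 and fell by 3.08 in shARID1A.2, 1.102 in shARID1A.4 and 1.81 in shARID1A/B.4.2. IGF2R, the receptor that clears IGF2, averaged 19707 and fell by 1.67 in shARID1A.2 and 1.80 in shARID1A/B.4.2.

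ERK activity was not measured in these libraries. The RNA of a list of 15 genes that the ERK cascade induces was read, most of which in turn dampen receptor signalling. Of these, 14 were lower in shARID1A.2, 9 in shARID1B.2, 6 in shARID1A/B.4.2, 4 in shARID1A.4, 3 in shARID1A/B.2.3 and 2 in shARID1B.3, and 1 was higher in each of the last 3. The lower share was 93.3% in shARID1A.2 and 60% in shARID1B.2, beside 10.7% and 5.12% of all genes, and 13.3% in shARID1B.3, beside 6.58%. The median log2 difference of the list was -1.70, -1.36, -0.72, -0.19, -0.25 and -0.40, in that order, beside medians of 0.01 to 0.02 for all genes. IER3 averaged 1770 in Control and fell by 0.998 to 2.94 in all 6 conditions, and DUSP6, the phosphatase that inactivates ERK, averaged 4311 and fell by 0.62 to 2.13.

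The transcription factor ETV5 read 3860, 3827 and 3914 in Control and 633.2, 620.1 and 603.6 in shARID1A.2, a fall of 2.64. It fell by 1.76 in shARID1A/B.4.2 and 1.47 in shARID1B.2, and by 0.44 or less elsewhere, where the difference in shARID1A/B.2.3 (-0.04) did not pass the test. The feedback inhibitor SPRY4 fell by 1.83 in shARID1A.2, 1.78 in shARID1B.2 and 0.65 in shARID1A/B.4.2, and rose by 0.16 to 0.30 in the other 3. SPRY2 fell by 2.15, 1.36 and 1.52 in the same 3 conditions, by 0.50 in shARID1A.4 and 0.26 in shARID1A/B.2.3, and rose by 0.125 in shARID1B.3. EGR1, an immediate early gene, fell by 2.66 in shARID1A.2 and 3.16 in shARID1A/B.4.2 and rose by 1.07 in shARID1A.4 and 1.34 in shARID1B.3.

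The remaining genes of this list with a Control mean above 1000, DUSP4, SPRED1, SPRED2, ETV4 and PHLDA1, fell by 1.01 to 1.38 in shARID1A.2, as did SPRY1 (2.19), DUSP5 (2.11) and FOSL1 (1.56), and SPRED3 (0.60) rose. DUSP5 also fell in shARID1B.2 (-1.90) and shARID1B.3 (-1.14), and it rose by 1.23 in shARID1A/B.2.3. DUSP4, SPRED1 and SPRED2 no longer passed a difference of 1 in shARID1A.2 when values were scaled to total reads. DUSP4 also no longer did with TMM scaling, with edgeR, or without Control replicate 1 or shARID1A.2 replicate 2. The 3 conditions with the most lower genes were also the 3 with the lowest IGF1R, and EGFR was below Control in 2 of them and above it in shARID1B.2. Whether receptor levels bear on the genes of this list was not tested.

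**Figure D4:**
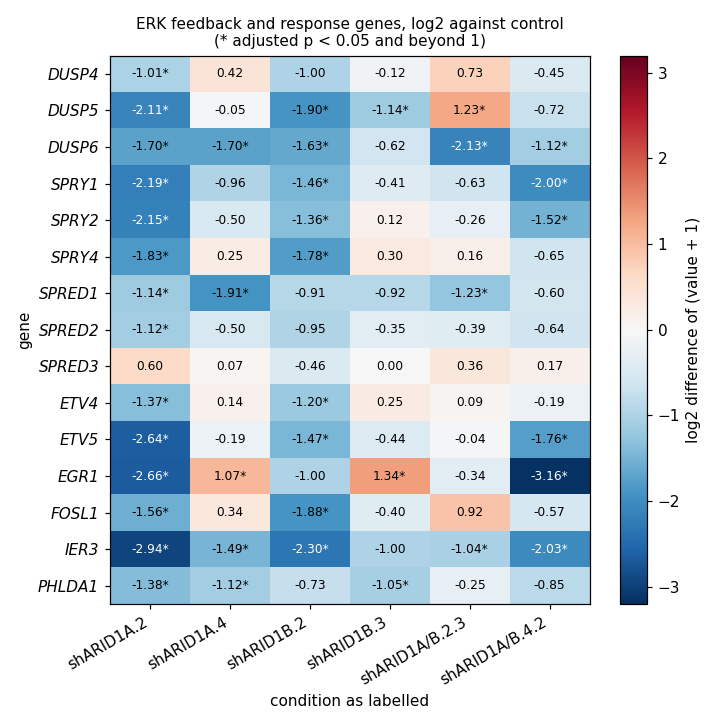
Log2 difference of (value + 1) from Control for 15 ERK feedback and response genes (vertical axis) in the 6 silenced conditions as labelled (horizontal axis), blue lower and red higher, with an asterisk where the adjusted p is under 0.05 and the difference beyond 1. The shARID1A.2 column has 14 asterisks, all lower, shARID1B.2 has 9, and shARID1B.3 has 3, of which EGR1 (1.34) is higher.

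Of 12 genes for receptor inhibitors and insulin-like growth factor binding proteins, 11 were tested, and 3, 4, 1, 2, 4 and 3 were lower and none higher in the 6 conditions in the order used above, with medians of -0.88 to -0.24. The lower share ran from 9.09% in shARID1B.2 to 36.4% in shARID1A.4 and shARID1A/B.2.3, beside 5.12%, 12% and 9.1% of all genes. LRIG1, a membrane protein that lowers ERBB receptors and MET, averaged 332.1 in Control and fell by 2.23 in shARID1A.4, 1.89 in shARID1B.3 and 1.54 in shARID1A/B.2.3. ERRFI1, an inhibitor of the EGFR kinase, fell by 1.79 in shARID1A.4 and 1.84 in shARID1A/B.2.3 from a mean of 610.5. IGFBP2, the most abundant of the binding proteins at 12498, fell by 1.44 in shARID1A.2, 1.05 in shARID1B.2 and 1.32 in shARID1A/B.4.2.

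IGFBP7 averaged 1644 and fell by 1.75 in shARID1A.2, 2.12 in shARID1A.4 and 1.44 in shARID1A/B.2.3, and IGFBP4 averaged 4019 and fell by 1.54 in shARID1A.4 and 2.10 in shARID1B.3. CBLB, a ubiquitin ligase of receptors, averaged 4982 and fell by 1.24 in shARID1A.2 and 1.21 in shARID1A/B.4.2, and SOCS2, an inhibitor of cytokine receptor signalling, fell by 1.17 in shARID1A/B.2.3. IGFBP3 and IGFBP5, at 2222 and 3874 in Control, and LRIG3 were modulated in no condition, and IGFBP6, at 29.97, fell by 1.02 in shARID1A/B.4.2 (-0.73 without replicate 2 of that condition). The IGFBP6 difference also came to less than 1 in size with total reads (-0.839), TMM (-0.983) or a pseudocount of 5 (-0.846). The same held without Control replicate 2 (-0.979) or 3 (-0.924). IGFBP1 was not tested, at no more than 2.81 in any library.

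The 5 tested genes whose difference from Control was most like that of HGF over the 18 silenced libraries, by the root mean square (RMS) difference on the log2(value + 1) scale, were HECW2-AS1 (RMS 0.61), AC008163.1 (0.66), LINC02607 (0.67), LOXL2 (0.74) and MCAM (0.77). LOXL2, a lysyl oxidase of the extracellular matrix, averaged 3824 in Control and differed by -2.83 in shARID1A.4 to -1.64 in shARID1A/B.2.3. MCAM, an adhesion molecule of mural and melanoma cells, averaged 3137 and differed by -3.71 in shARID1A.2 to -1.28 in shARID1A/B.2.3. HECW2-AS1, an antisense RNA at 113.8 in Control, was lowest in shARID1A.4 (-4.67) and highest in shARID1A/B.4.2 (-1.43), the same conditions as for HGF, though its reads cannot be told from those of its sense partner unless strand was used in counting. These genes were picked for their likeness to HGF and their values support nothing about it.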

How the data were processed

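RNA-seq libraries (TruSeq Stranded mRNA) of 21 SK-N-BE(2) samples were grouped by the labels into 7 conditions of 3. The authors deposited, for each gene and library, a signal, which is a read number scaled by the size factor of its library. The submitters' processing notes name STAR 2.5.3a, RSEM 1.3.0, DESeq2 1.26.0 and GRCh38, with no role or order. The annotation and the use of strand in counting are not given in the sources used here. Whole reads were recovered for 100% of values up to 1000 reads, within 0.1 read, and replicates of a condition differed beyond sampling noise in all 21 pairs (a chi-square of 1.54 to 4.00 for each degree of freedom) and were kept apart. In addition, 3 deposited tables hold comparisons by the authors, with means, log2 fold changes, statistics and p-values, which were not used.

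Values were analysed as log2(value + 1), which understates the change of low genes, with limma 3.58.1 (trend, 7 conditions, all libraries) in R 4.3.3, after edgeR's filterByExpr on the recovered reads left 18584 genes. Benjamini-Hochberg adjustment was applied within each of 12 comparisons. Alternatives were pseudocounts of 0.5 and 5, scaling to total reads, TMM, edgeR 4.0.16 (quasi-likelihood), DESeq2 1.42.0 (Wald test), no filter (35892 genes), a mean of at least 10 reads (17008 genes), only the 6 libraries compared, the replicate number as a block, and each library left out. Counts of modulated members leave out HGF, chosen for its fall, and ERBB3, kept by the filter only through its high libraries. The code was tested on simulated data. Figures were drawn with matplotlib 3.10.9.

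Gene positions came from GENCODE 29, matched by gene identifier without its version, and promoter windows from RefSeq (GRCh38.p14). Windows of 8 of the 10 genes were used, as ERBB3 had no entry and FGFR1 was left out. The members and gene lists were chosen with earlier results of these data known. Of the adrenergic markers, 1 is not reported here and is left out of the counts and sums. Besides the members, ARID1A and ARID1B, genes of the lists were named if modulated in 1 direction in both conditions of a label, if their Control mean was at least 1000, or if they were ligands, activators or inhibitors, and the 5 genes nearest to HGF by RMS difference were named.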

Additional observations from a re-analysis of the deposited data

Results flagged for a closer look

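The receptors below differed between the 2 shRNA sets of the same label, by limma's test of the difference itself (adjusted p under 0.05) and by more than 1 on the log2 scale. Between the sets labelled shARID1A, shARID1A.4 minus shARID1A.2 was -1.92 for PDGFRA (adjusted p = 1.69e-17), -1.30 for FGFR2 (adjusted p = 3.26e-13) and 1.25 for IGF1R (adjusted p = 1.36e-21). Between the sets labelled shARID1B, shARID1B.3 minus shARID1B.2 was -1.80 for PDGFRA (adjusted p = 1.3e-16). Between the sets labelled shARID1A/B, in which ARID1B alone was low, shARID1A/B.4.2 minus shARID1A/B.2.3 was -2.49 for EGFR (adjusted p = 3.51e-21) and -1.92 for AXL (adjusted p = 1.39e-15). In each of these, the 3 libraries of one set did not overlap the 3 of the other.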

How the results depend on the processing

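The counts of modulated genes stayed within 1.5 times of the reported counts, in all 6 comparisons with Control, under all alternatives run. The 7 receptors kept their direction in 672 of 672 repeats against Control, and kept or missed the call as reported in 671. The exception was PDGFRA in shARID1A/B.2.3, at -0.98 as reported and at -1.02 and modulated without replicate 2 of that condition. Of the 7 receptors, 5 were modulated in shARID1A.2, 4 in shARID1A.4, 1 in shARID1B.2, 2 in shARID1B.3 and 3 in shARID1A/B.4.2 under every alternative. In shARID1A/B.2.3 the number ranged from 2 to 3. These counts are to be read beside the shares of all genes given above. In 8 of the 672 repeats the adjusted p changed sides of 0.05, for EGFR in shARID1A.4 without Control replicate 1 or shARID1A.4 replicate 1 or 3 (adjusted p = 0.0701, 0.0814 and 0.11) and for PDGFRB and PDGFRA as follows. PDGFRB in shARID1B.3 passed with total reads, TMM, edgeR and without shARID1B.3 replicate 2, at 0.10 to 0.12 (adjusted p = 0.0239, 0.0203, 0.012 and 0.0086), and PDGFRA in shARID1B.2 passed with total reads (0.22, adjusted p = 0.0148). ERBB3 between shARID1A and shARID1B was at -0.09 as reported and turned to 0.14 with edgeR, neither of which passes (adjusted p = 0.839 and 0.775). Scaling to total reads moved HGF beyond its replicate spread, to -2.94, -2.37 and -1.69 in shARID1A.2, shARID1B.2 and shARID1A/B.4.2. Of the 159 calls of list genes, 0 changed sign, and in 60 of 2537 repeats the gene was no longer modulated, in 20 of them through the adjusted p, with 7 more not tested. Same-numbered libraries did not deviate together (63 correlations from -0.19 to 0.21 over 12367 genes, 7 above 0.1), and a replicate block gave 4615, 3967, 2221, 2186, 3000 and 3424 modulated genes against 4618, 3969, 2226, 2189, 2999 and 3423 and changed no call of a member. For MET, depth sets the limit.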
